A study of Mus musculus with 2 samples.

Results

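Dividing crypt epithelial cells were the epithelial barcodes of the mouse intestine that carried RNA of the proliferation genes Mki67 and Top2a. A barcode was a member when its raw counts of unique molecular identifiers (UMIs, each standing for 1 captured RNA molecule) held at least 1 Epcam, at least 1 Krt8 and at least 2 Mki67 and Top2a together. Members held at most 1 UMI of the B cell gene Cd79a and 0 of the T cell gene Cd3e. The rule was applied after barcodes under 500 UMIs, under 250 genes or above 25% mitochondrial UMIs had been dropped. It found 112 members among 15156 kept barcodes, 44 of 8247 in the butyrate library and 68 of 6909 in the RA library. The cells were thus selected on their Mki67, Top2a, Epcam, Krt8, Cd79a and Cd3e values, which are given only as a description.

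The whole intestine of 1 mouse per group was dissociated, and the cells were profiled by droplet single-cell RNA sequencing that counts the 3′ ends of transcripts. The butyrate mouse was wild type and was fed a diet with 1% butyrate, the short-chain fatty acid of bacterial fibre fermentation in the colon. The RA mouse was wild type, was on standard chow and belonged to the group with collagen-induced arthritis, a mouse model of rheumatoid arthritis. Whether the butyrate mouse also had arthritis, and the strain, age and time on the diet, are not given in the labels. Each group is 1 animal and 1 library, so diet, arthritis, animal and library cannot be told apart, no test between the libraries was made, and every interval below covers counting error only.

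The stem cells at the base of an intestinal crypt divide continuously under Wnt signals and carry the receptor Lgr5, which binds R-spondins and strengthens that signal. Their daughters divide further in the transit-amplifying zone, where Notch signalling separates absorptive from secretory fates. Absorptive cells then become colonocytes or enterocytes and secretory cells become goblet, enteroendocrine, tuft or, in the small intestine, Paneth cells. Mki67 encodes the Ki-67 protein that coats mitotic chromosomes, and Top2a encodes the topoisomerase that untangles replicated DNA.

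The dividing cells were deep, with a median of 26425 UMIs in the butyrate library (3991 to 174957) and 25606.5 in the RA library (1830 to 133550). Epithelial barcodes with no Mki67 or Top2a UMI, called other epithelial barcodes here, had medians of 5752 and 7114.5 UMIs. Mitochondrial RNA made up a median of 6.56% of the UMIs in butyrate dividing cells and 8.30% in RA dividing cells, against 17.1% and 13.7% in the other epithelial barcodes. The libraries shared 27 barcode sequences, of which 19 were kept in both, and 0 members had a barcode that the other library also held. At least 50000 UMIs were held by 14 butyrate and 18 RA members. Scrublet, a doublet caller, marked 0 barcodes at its own threshold and so gave no usable calls. Removing the 544 butyrate and 382 RA barcodes with the highest scores took 2 members from each library.

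The members carried the epithelial genes of their label. Epcam, the epithelial adhesion molecule, ran from 1 to 277 UMIs per cell with a median of 68 in the butyrate library, and from 1 to 235 with a median of 55.5 in the RA library. Krt8, a keratin of simple epithelia, had medians of 40.5 and 53 UMIs. Hoxb13, a regulator of the distal colon, and the hindgut factor Cdx1 were detected, and Hoxb13 had a UMI in 26 of 44 butyrate and 34 of 68 RA members. The small intestinal regulators Gata5 and Onecut2 had 0 UMIs in both libraries and Gata4 had 0 and 1. Paneth cell lysozyme Lyz1 and the stem cell marker Olfm4, which mouse colon lacks, were at 0 in both. These markers were picked from the lists after their values were seen. The full list of 12 small intestinal enterocyte genes summed to 436 UMIs in 40 of 44 butyrate members and 739 UMIs in 61 of 68 RA members. Of these, 407 and 670 were UMIs of Fabp2, a fatty acid binding protein, which was also present in the other epithelial barcodes at 1229 and 700 CPM. The 8 Paneth genes in the files summed to 306 UMIs in 19 butyrate members and 387 UMIs in 33 RA members, of which 302 and 385 were UMIs of Nupr1, a stress-responsive gene. Lgr5, the label's mark of the crypt base, had a UMI in 3 of 44 butyrate and 16 of 68 RA members, so most members carried none, and the place of a cell along the crypt was not measured.

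RNA of other cell types was low but present. The B cell marker Ms4a1, the neutrophil gene S100a8 and the mesothelial gene Msln were at 0 in both libraries. Ptprc, the leukocyte antigen CD45, had a UMI in 6 butyrate and 7 RA members. The 7 pan-leukocyte genes summed to 69.5 CPM (UMIs of a gene scaled to 1000000 UMIs of the members) in butyrate members and 21.8 in RA members, and they had a UMI in 8 and 10 cells. In barcodes of B cells the same sums were 4210 and 4040 CPM. The 8 myeloid genes summed to 90.3 and 9.07 CPM, and 1 butyrate cell held 91.4% of that library's 116 Lyz2 UMIs. The 8 stromal and endothelial genes summed to 67.1 and 63.5 CPM. Their part in the differences below was not tested, and values without every member that had a Ptprc or Cd79a UMI are given where they moved a result.

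The cycle genes left a graded boundary. Mki67 lies at chr7:135689784-135716361 and Top2a at chr11:98992943-99024189, both on the minus strand of GRCm38 (GENCODE M21). Mki67 had a UMI in 40 butyrate members (0 to 28 per cell, median 3) and 61 RA members (0 to 45, median 3.5). Top2a had a UMI in 31 butyrate members (0 to 11 per cell, median 1) and 42 RA members (0 to 19, median 1). Just outside the threshold, 45 butyrate and 41 RA epithelial barcodes had exactly 1 UMI of the pair, and 24 mitosis genes other than the pair summed to 221 and 260 CPM there. Just inside it, 15 and 16 members had exactly 2 UMIs, and the mitosis genes summed to 376 and 619 CPM. Members with 3 or more had 1862 and 2169 CPM, and barcodes with none had 115 and 113 CPM. At least 2 UMIs of Mki67 and Top2a together also occurred in 5.36% of the butyrate and 2.68% of the RA B cell barcodes, among which germinal centre B cells divide.

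The dividing state was also seen in genes that the rule did not use. Of the members, 30 of 44 in the butyrate library (68.2%, exact 95% interval 52.4 to 81.4) and 54 of 68 in the RA library (79.4%, 67.9 to 88.3) had at least 2 UMIs of Ube2c, Birc5, Cdk1 and Cenpf together. Among other epithelial barcodes these shares were 1.68% (13 of 772) and 2.37% (15 of 632), at a lower depth than in the members. Ube2c, which loads ubiquitin for the anaphase-promoting complex, reached 133 CPM in butyrate members and 156 in RA members, against 3.55 and 4.55 in other epithelial barcodes. Ccnb1, the cyclin that starts mitosis, was at 33.6 and 56.0 CPM against 0.127 and 0.268. Cenpf, a kinetochore protein, was at 120 and 161 CPM against 1.14 and 0.937, and Hmmr, a spindle protein, at 38.2 and 63.1 against 0.127 and 0.670. In each of these 4 genes, dividing cells stood at least 34-fold above the other epithelial barcodes of their own library. Of the members, 3 butyrate cells and 1 RA cell held no UMI of any mitosis gene.

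Promoters of the 4 mitosis genes just described are shown beside that of a replication gene, because their RNA separated dividing cells from the other epithelium. Textbook cell cycle control has a CHR element (searched as TTTGAA) bound by the DREAM and MuvB complexes in promoters of late cycle genes, often beside CCAAT boxes, and E2F sites (searched as TTCCCGC) in promoters of replication genes. Motifs were sought on both strands in the RefSeq windows from 250 bases before to 50 after each gene's start on GRCm38.p6, and a base may belong to matches of more than 1 motif. Capitals mark every match to any of the 3 motifs, and all windows are written 5′ to 3′ on the gene's own strand. The Ube2c window is chr2:164769679-164769978 on the plus strand, that of Hmmr chr11:40733388-40733687 on the minus strand, that of Cenpf chr1:189688037-189688336 on the minus strand and that of Ccnb1 chr13:100786437-100786736 on the minus strand. The window of Mcm7, a subunit of the replicative helicase, is chr5:138171834-138172133 on the minus strand.
Ube2c: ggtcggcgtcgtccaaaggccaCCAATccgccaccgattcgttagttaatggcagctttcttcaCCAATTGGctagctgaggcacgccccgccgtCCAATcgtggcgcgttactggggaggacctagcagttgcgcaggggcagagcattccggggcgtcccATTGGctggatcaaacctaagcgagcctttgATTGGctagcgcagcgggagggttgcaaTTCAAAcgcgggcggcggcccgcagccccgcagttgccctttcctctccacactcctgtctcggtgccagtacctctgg
Hmmr: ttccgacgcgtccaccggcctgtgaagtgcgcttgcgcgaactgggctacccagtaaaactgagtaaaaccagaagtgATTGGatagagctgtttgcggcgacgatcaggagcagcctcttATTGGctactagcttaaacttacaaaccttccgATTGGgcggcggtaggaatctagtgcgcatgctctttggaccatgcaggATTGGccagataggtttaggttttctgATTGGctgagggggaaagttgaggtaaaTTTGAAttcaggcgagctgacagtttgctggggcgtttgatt
Cenpf: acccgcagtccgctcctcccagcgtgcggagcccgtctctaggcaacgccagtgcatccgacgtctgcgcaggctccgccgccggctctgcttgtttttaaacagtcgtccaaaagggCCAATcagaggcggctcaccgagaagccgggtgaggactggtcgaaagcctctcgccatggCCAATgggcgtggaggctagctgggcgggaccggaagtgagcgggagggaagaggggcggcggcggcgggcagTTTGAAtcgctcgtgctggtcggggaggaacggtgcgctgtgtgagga
Ccnb1: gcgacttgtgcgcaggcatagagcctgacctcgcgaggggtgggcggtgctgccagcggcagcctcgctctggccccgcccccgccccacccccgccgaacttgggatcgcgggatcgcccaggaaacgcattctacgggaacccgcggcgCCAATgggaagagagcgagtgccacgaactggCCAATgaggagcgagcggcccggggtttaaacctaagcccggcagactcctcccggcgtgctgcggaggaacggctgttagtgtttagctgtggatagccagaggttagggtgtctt
Mcm7: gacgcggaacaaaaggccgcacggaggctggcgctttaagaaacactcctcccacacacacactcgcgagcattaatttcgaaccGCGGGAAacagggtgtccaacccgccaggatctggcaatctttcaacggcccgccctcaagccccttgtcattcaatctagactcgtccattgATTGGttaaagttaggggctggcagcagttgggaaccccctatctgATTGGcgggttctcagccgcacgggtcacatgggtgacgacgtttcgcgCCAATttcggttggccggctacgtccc

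The windows of Ube2c, Hmmr and Cenpf each held 1 CHR match, with 6, 5 and 2 CCAAT matches in that order, while the Ccnb1 window held 0 CHR and 2 CCAAT matches. The Mcm7 window held 0 CHR, 3 CCAAT and 1 E2F match. Windows were found for 20 of the 24 mitosis genes, of which 13 (65%) held a CHR match, 17 (85%) a CCAAT match and 0 an E2F match, so 7 held no CHR match, those of Ccnb1 and Birc5 among them. Over all 27025 windows these shares were 18.1%, 37.9% and 4.66%. Of the 18 windows found for 20 replication genes, 3 (16.7%) held a CHR match and 7 (38.9%) an E2F match. The 12 windows found for 18 crypt stem cell genes held 0 CHR matches and 1 E2F match. A match is a run of letters and not a measured binding site.

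**Figure D1:**
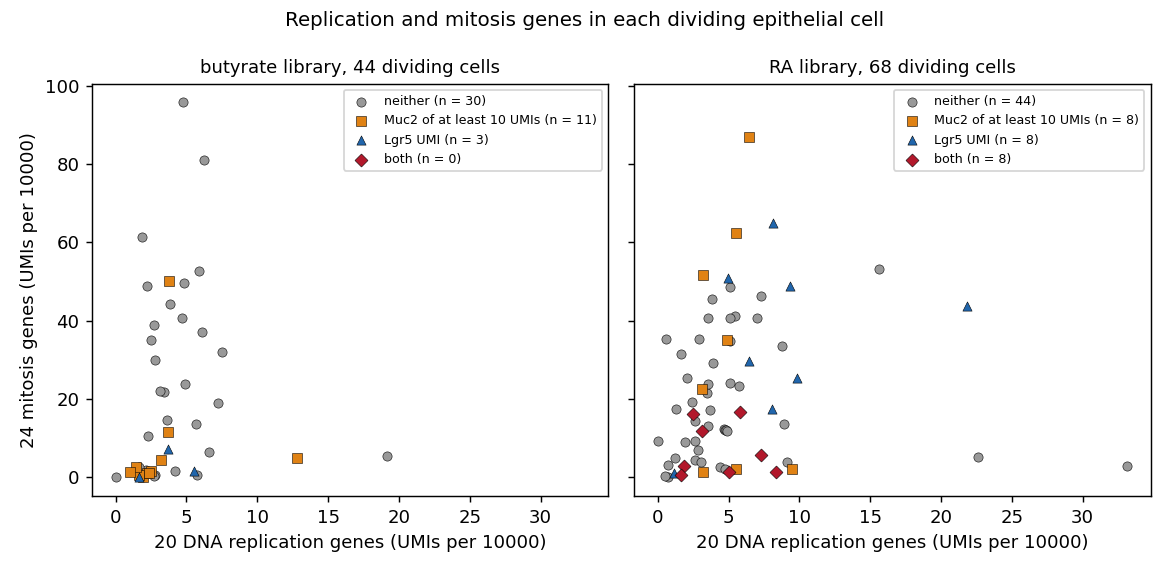
Each point is 1 dividing cell, with UMIs of 20 replication genes per 10000 on the x axis and UMIs of 24 mitosis genes per 10000 on the y axis, for the butyrate library (left) and the RA library (right). Symbols give cells with an Lgr5 UMI, with at least 10 Muc2 UMIs, with both or with neither. In the butyrate library most of the 11 Muc2-rich cells sit near the bottom, with a median of 1.78 mitosis UMIs per 10000, and cells with both number 0 in the butyrate and 8 in the RA library.

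Mitosis and replication genes varied widely among members, as the plot of both lists in each cell shows. Mitosis genes ran from 0 to 95.7 UMIs per 10000 with a median of 8.94 in butyrate members, and from 0 to 86.8 with a median of 17.0 in RA members. At least 20 per 10000 were held by 17 of 44 butyrate and 30 of 68 RA members. Replication genes had medians of 3.31 (0 to 19.2) and 4.72 (0 to 33.1) per 10000. The mitosis ranges of the libraries overlapped almost fully, while at least 20 replication UMIs per 10000 were held by 0 butyrate and 3 RA members.

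Set against the other epithelium of the same library, dividing cells carried more RNA of growth and stem cell genes and less RNA of the mature absorptive cell. Over all genes with at least 50 UMIs, 11.5% were at least 2-fold higher in dividing cells in the butyrate library and 6.82% in the RA library, while 11.2% and 10.8% were at least 2-fold lower. The median log2 ratio of all genes was 0.22 and 0.20. The dividing cells were also the deeper barcodes with less mitochondrial RNA, as given above. Among barcodes with at least 10000 UMIs in both sets, a restriction added after the data were seen, the medians in the butyrate and RA libraries were 5.96 and 4.98 for mitosis genes and -3.08 and -2.99 for absorptive colonocyte genes. For crypt stem cell genes they were 0.76 and 0.67 there, beside medians of all genes of 0.16 and 0.16. The ratios are a description, since the cells were selected on cycle genes, and only list members with at least 50 UMIs are counted. Of the 24 mitosis genes 17 reached that minimum in the butyrate library and 23 in the RA library, with median log2 ratios of 5.65 and 5.07.

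Genes of DNA replication had a median log2 ratio of 1.71 in the butyrate library (6 of 8 measured members at least 2-fold higher) and 1.38 in the RA library (12 of 16). Among barcodes with at least 10000 UMIs the medians were 1.21 (3 of 5) and 1.16 (9 of 16). Tyms and Dut, which supply and guard thymidine nucleotides, were 3.28-fold and 2.99-fold higher in butyrate dividing cells and 4.14-fold and 2.37-fold higher in RA dividing cells. Pcna, the sliding clamp of the replication fork, stood apart at 1.15-fold and 1.19-fold, close to the median of all genes. Ribosome biogenesis genes had medians of 1.2 (12 of 14 at least 2-fold higher) and 0.94 (4 of 16). At that depth their medians were 0.81 (3 of 14) and 0.69 (2 of 14), so most of the 2-fold counts depended on depth. Npm1, a nucleolar chaperone, was 2.29-fold and 1.61-fold higher, and Ncl, nucleolin, 2.23-fold and 1.89-fold.

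Crypt stem cell genes had medians of 1.00 (6 of 13 at least 2-fold higher) and 0.94 (4 of 15). Among barcodes with at least 10000 UMIs, 2 of 13 and 1 of 15 were at least 2-fold higher. Slc12a2, the basolateral chloride importer of crypt cells, was at 432 CPM in butyrate dividing cells against 175 in other butyrate epithelium, and at 569 against 290 CPM in the RA library. Ephb2, a receptor that keeps cells in the crypt, was 2.79-fold and 2.0-fold higher, and Sox9, a Wnt-responsive factor of progenitors, 1.89-fold and 1.44-fold. Lgr5 itself was at 2.32 CPM in butyrate dividing cells against 3.05 in other butyrate epithelium (0.76-fold, 0.192 to 2.21), and at 39.1 against 11.1 CPM in the RA library (3.52-fold, 2.6 to 4.79). Notch and lineage choice genes had medians of 1.01 (6 of 12) and 0.49 (3 of 12), and of 0.78 (3 of 11) and 0.48 (2 of 12) at that depth.

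Genes of the absorptive colonocyte had median log2 ratios of -3.53 (16 of 18 at least 2-fold lower) and -2.94 (14 of 18). Guca2a, the peptide guanylin that drives fluid secretion, was at 301 CPM in butyrate dividing cells against 2981 in other butyrate epithelium, and at 276 against 2625 CPM in the RA library. Slc26a3, the chloride and bicarbonate exchanger of the colon surface, was at 0.0735-fold and 0.0918-fold, and Krt20, a keratin of mature cells, at 0.0591-fold and 0.0539-fold. Low levels of the mature genes were thus a feature of dividing cells in both libraries.

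Defence genes were also lower in the dividing cells. Type I interferon genes had medians of -3.03 (15 of 17 at least 2-fold lower) and -2.15 (12 of 17), and Isg15, a ubiquitin-like antiviral protein, was at 0.0995-fold and 0.131-fold. MHC class I genes, which display peptides to CD8 T cells, had medians of -0.99 (6 of 12) and -0.83 (4 of 12). Antimicrobial lectin and acute phase genes had medians of -3.13 (7 of 9) and -1.98 (8 of 11), and of -1.16 and -0.92 among barcodes with at least 10000 UMIs. The interferon medians were -2.47 and -1.37 at that depth. In the RA library Reg3b, a lectin that kills Gram-negative bacteria, was 3.30-fold higher in dividing cells, against the direction of its list. Heat shock genes had medians of 0.43 and 0.58, but of -0.12 and 0.29 among barcodes with at least 10000 UMIs, so their direction in the butyrate library depended on depth.

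**Figure D2:**
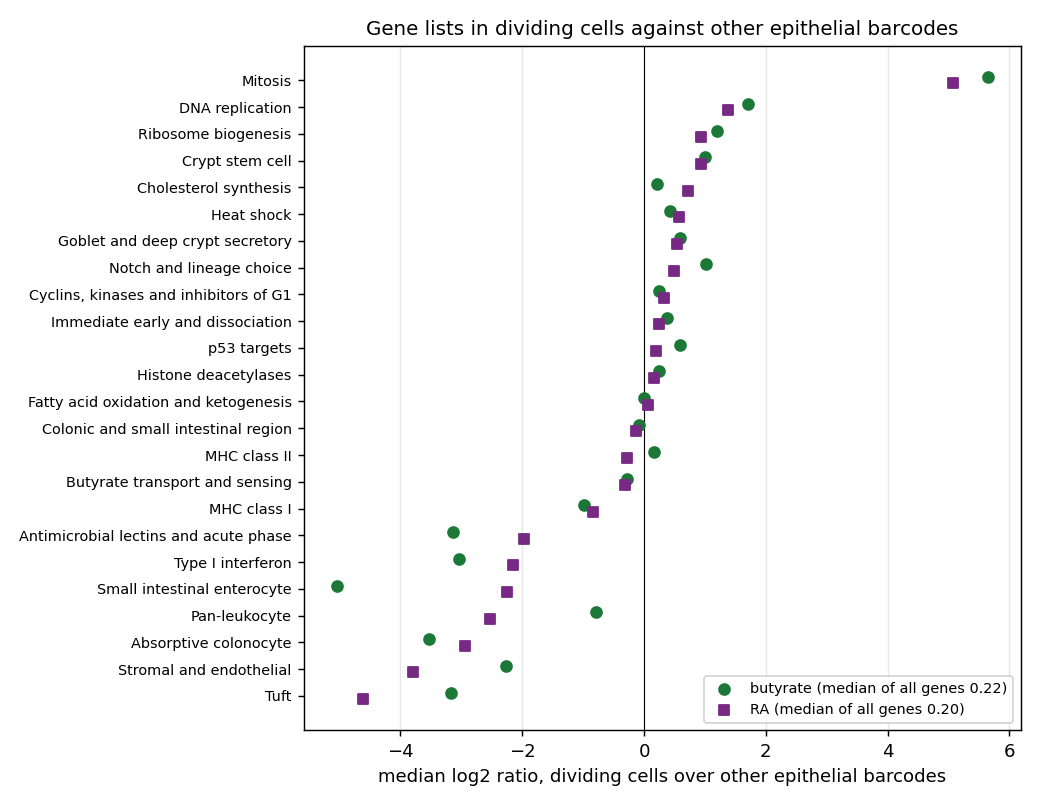
Median log2 ratio of each gene list in dividing cells over other epithelial barcodes of the same library, for genes with at least 50 UMIs (circles butyrate, squares RA). Mitosis genes lie highest at 5.65 and 5.07, absorptive colonocyte genes at -3.53 and -2.94, and the goblet list at 0.59 and 0.54, or at -1.67 and -2.00 without the Muc2-rich cells. The Muc2 cut is a raw count that the shallower other epithelial barcodes reach less readily, so the last values were not compared at equal depth.

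The number of dividing cells differed between the libraries. They made up 5.11% of the 861 butyrate epithelial barcodes (exact 95% interval 3.74 to 6.80) and 9.18% of the 741 RA epithelial barcodes (7.20 to 11.5), a ratio of 0.557 (0.372 to 0.826). Of all kept barcodes they were 0.534% and 0.984%. With the 4 other cycle genes in place of Mki67 and Top2a, the shares were 5.81% (50 of 861) and 9.99% (74 of 741), a ratio of 0.582. The direction was the same under every definition tried, but the gap was smaller among barcodes of better depth or less mitochondrial RNA. At a limit of 10% mitochondrial UMIs the shares were 12% (33 of 276) and 14.4% (43 of 298), and the ratio of 0.829 had an interval of 0.510 to 1.34. Among barcodes with at least 10000 UMIs they were 14.7% (36 of 245) and 18.1% (58 of 321), with a ratio of 0.813 (0.521 to 1.25). With each barcode thinned to 2000 UMIs, 8 of 861 butyrate barcodes (0.929%) and 14 of 683 RA barcodes (2.05%) still met the rule once shallower barcodes were left out, a ratio of 0.453 (0.165 to 1.16). The part of depth and RNA quality in this gap was not tested beyond these values.

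**Figure D3:**
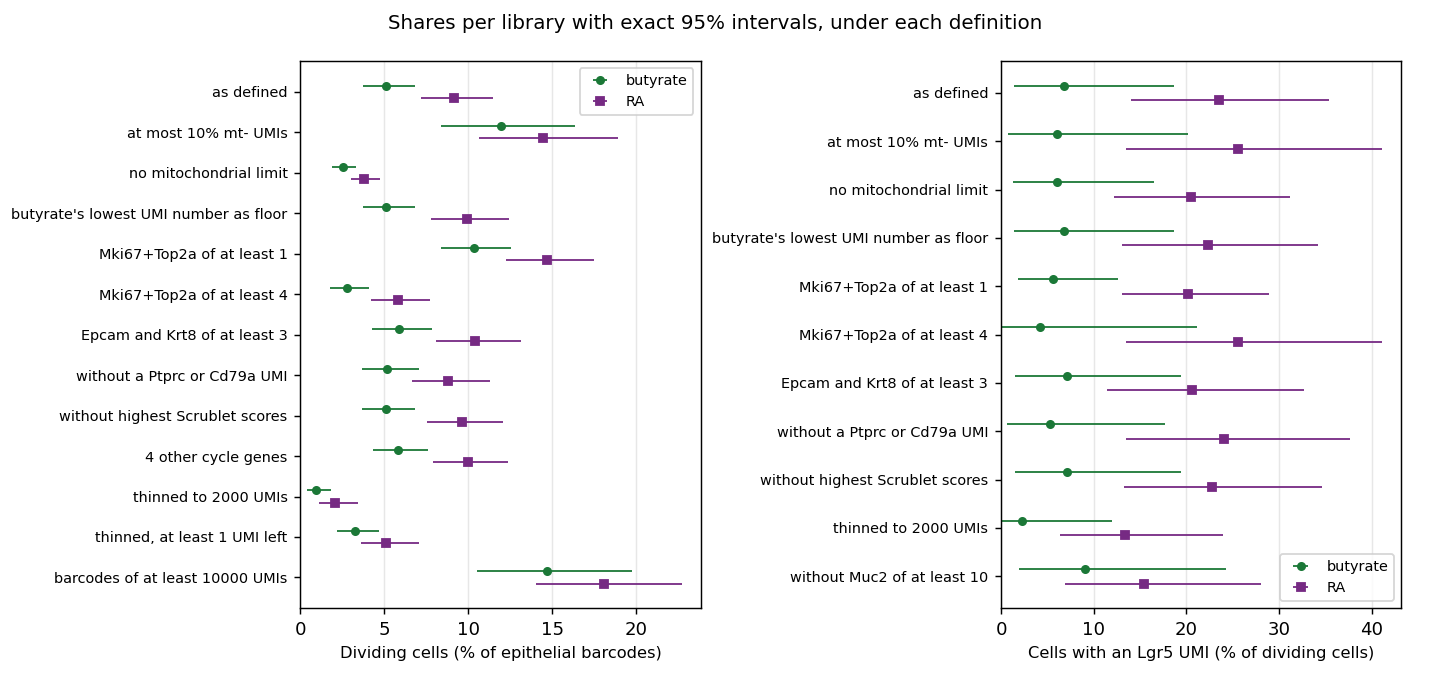
Share of dividing cells among epithelial barcodes (left) and share of dividing cells with an Lgr5 UMI (right), in percent, under each definition, with exact 95% intervals for counting error (circles butyrate, squares RA). The butyrate share is the lower in every pair, 5.11% against 9.18% as defined, and the intervals overlap in most pairs.

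Lgr5 RNA was near the limit of detection in butyrate dividing cells and clearly present in RA dividing cells. Lgr5 lies at chr10:115450311-115587780 on the minus strand of GRCm38 (GENCODE M21). It had 4 UMIs in 3 of 44 butyrate members, with 1, 1 and 2 UMIs per cell, and 95 UMIs in 16 of 68 RA members, with 1 to 19 per cell. In CPM these sums were 2.32 and 39.1, a ratio of 0.0591 (0.0158 to 0.156). The share of cells with a UMI was 6.82% (1.43 to 18.7) and 23.5% (14.1 to 35.4), and the ratio of shares was 0.290 (0.0541 to 1.01). After thinning to 2000 UMIs, which left out 1 shallower RA cell, 1 of 44 butyrate cells (2.27%) and 9 of 67 RA cells (13.4%) kept an Lgr5 UMI. Leaving out cells with at least 10 Muc2 UMIs brought the shares closer, to 9.09% (3 of 33) and 15.4% (8 of 52), a ratio of 0.591 (0.101 to 2.46).

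B cell barcodes, which should lack the gene, give the background from free RNA. They were at 1.13 CPM in the butyrate library and 0.609 CPM in the RA library. The 2.32 CPM of the butyrate dividing cells had an exact Poisson interval of 0.631 to 5.93 that holds this background. By CPM alone, Lgr5 could thus not be told from free RNA there. The 39.1 CPM of the RA dividing cells, with an interval of 31.7 to 47.9, lay far above it. The 3 butyrate cells with an Lgr5 UMI had 12660, 30943 and 174957 UMIs in all. By share, an Lgr5 UMI was held by 0.482% of butyrate B cell barcodes (19 of 3938, 0.291 to 0.752) and 0.306% of RA ones (8 of 2614, 0.132 to 0.602). The member shares of 6.82% (1.43 to 18.7) and 23.5% (14.1 to 35.4) lay above these. B cell barcodes were shallower, with medians of 4527.5 and 4136 UMIs against 26425 and 25606.5 in members. CPM and share thus gave unlike answers for the butyrate members, and the part of free RNA was not tested further. Other epithelial barcodes, which were also shallower than the members, had one in 2.2% of cases in the butyrate library (17 of 772). In the RA library this was 3.96% (25 of 632).

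The RA cells with an Lgr5 UMI also carried more RNA of other stem cell genes than the remaining 52 RA dividing cells. Ascl2, a Wnt-driven regulator of colon stem cells, was at 24.2 CPM in Lgr5-positive cells and 1.88 in Lgr5-negative cells, a ratio of 12.9 (3.82 to 67.7). Smoc2, a matricellular protein of stem cells, was at 110.0 and 23.1 CPM (4.75-fold, 3.21 to 7.17), Axin2, a Wnt feedback gene, at 67.7 and 21.3 CPM (3.18-fold, 2.04 to 5.03), and Sox9 at 335 and 111 CPM (3.02-fold). Slc12a2 was at 845 and 427 CPM (1.98-fold) and Lrig1, a brake on growth factor receptors, at 216 and 151 CPM (1.44-fold). All of these 6 genes, chosen from the stem cell list after their values were seen, were thus higher in the RA cells with Lgr5. In the 3 butyrate cells with Lgr5 no such gap could be seen, with ratios of 2.05 (0.803 to 4.63) for Smoc2 and 0.955 (0.677 to 1.32) for Sox9. Of the 218560 UMIs of these 3 cells, 1 cell held 174957, so the ratios rest mainly on that cell.

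Genes of the maturing colonocyte were low in those RA cells. Aqp4, a water channel, was at 43.5 CPM in Lgr5-positive and 223 in Lgr5-negative RA cells, and Hao2, a peroxisomal oxidase, at 9.67 and 229 CPM. Slc26a3 had 0 UMIs in the 16 Lgr5-positive cells and 92 in the other RA cells, and Reg3b had 1 and 9650. In the butyrate library Aqp4 and Hao2 went the other way. Aqp4 was at 210 CPM in the 3 Lgr5-positive cells against 109 in the Lgr5-negative ones, and Hao2 at 242 against 158. The deepest of the 3 cells held 40 of their 46 Aqp4 UMIs and all 53 Hao2 UMIs. Slc26a3 had 0 UMIs in these 3 cells and 55 in the other butyrate members. Mki67 was 0.670-fold and Ube2c 0.400-fold in Lgr5-positive relative to Lgr5-negative RA cells, while Pcna was 1.60-fold. The mitosis genes are given apart for the cells on either side of the Muc2 divide. In the 8 Lgr5-positive RA cells with under 10 Muc2 UMIs they summed to 3621 CPM, against 2113 CPM in all Lgr5-negative RA cells. Mki67 was at 463 against 220 CPM. Of the 172887 UMIs of these 8 cells, the deepest cells held 62737 and 61957. In the 8 with at least 10 Muc2 UMIs the mitosis median was 4.44 UMIs per 10000. It was 15.8 in the RA cells with neither mark and 8.90 in all 16 RA Muc2-rich cells. Sums and cell medians are unlike measures with unlike reference cells, so the sides are not set against each other. Of the 16 Lgr5-positive RA cells, 8 had 28 to 1467 Muc2 UMIs and 8 had under 10, so Lgr5 cells fell on both sides of the secretory divide. The 3 butyrate cells all had under 10 Muc2 UMIs.

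Muc2-rich cells formed a distinct secretory group in both libraries. Muc2, at chr7:141690340-141754693 on the plus strand, encodes the gel-forming mucin of colon mucus, and at least 10 UMIs were held by 11 of 44 butyrate members (25%, 13.2 to 40.3) and 16 of 68 RA members (23.5%, 14.1 to 35.4). The ratio of these shares was 1.06 (0.446 to 2.44), an interval that allows a fold change of either direction above 2. Other epithelial barcodes held that many in 10.8% (83 of 772) and 15.7% (99 of 632). Those barcodes were shallower than the members, and this share was not compared at equal depth. Without members that had a Ptprc or Cd79a UMI the ratio was 0.711 (0.243 to 1.88), so no direction was set for this share. Both marks in the same cell were seen in 0 of 44 butyrate members, which allows a share of up to 6.82%, and in 8 of 68 RA members (11.8%).

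The Muc2-rich members were among the deepest barcodes, with medians of 62229 UMIs in butyrate cells and 58890 in RA cells. Their median Muc2 was 314 and 281 UMIs. Spdef, a transcription factor of goblet cell maturation, was at 118 and 95.4 CPM in them, against 1.03 and 0 CPM in the members with under 10 Muc2 UMIs. Atoh1, the factor that commits cells to the secretory fate, was at 61.1 and 35.8 CPM against 1.03 and 0.70. Aqp4, high in the members with little Muc2 (193 and 247 CPM), was at 29.2 and 40.8 CPM in the Muc2-rich cells. Goblet genes and Aqp4 were thus high in different members, as the heat map of single cells shows.

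**Figure D4:**
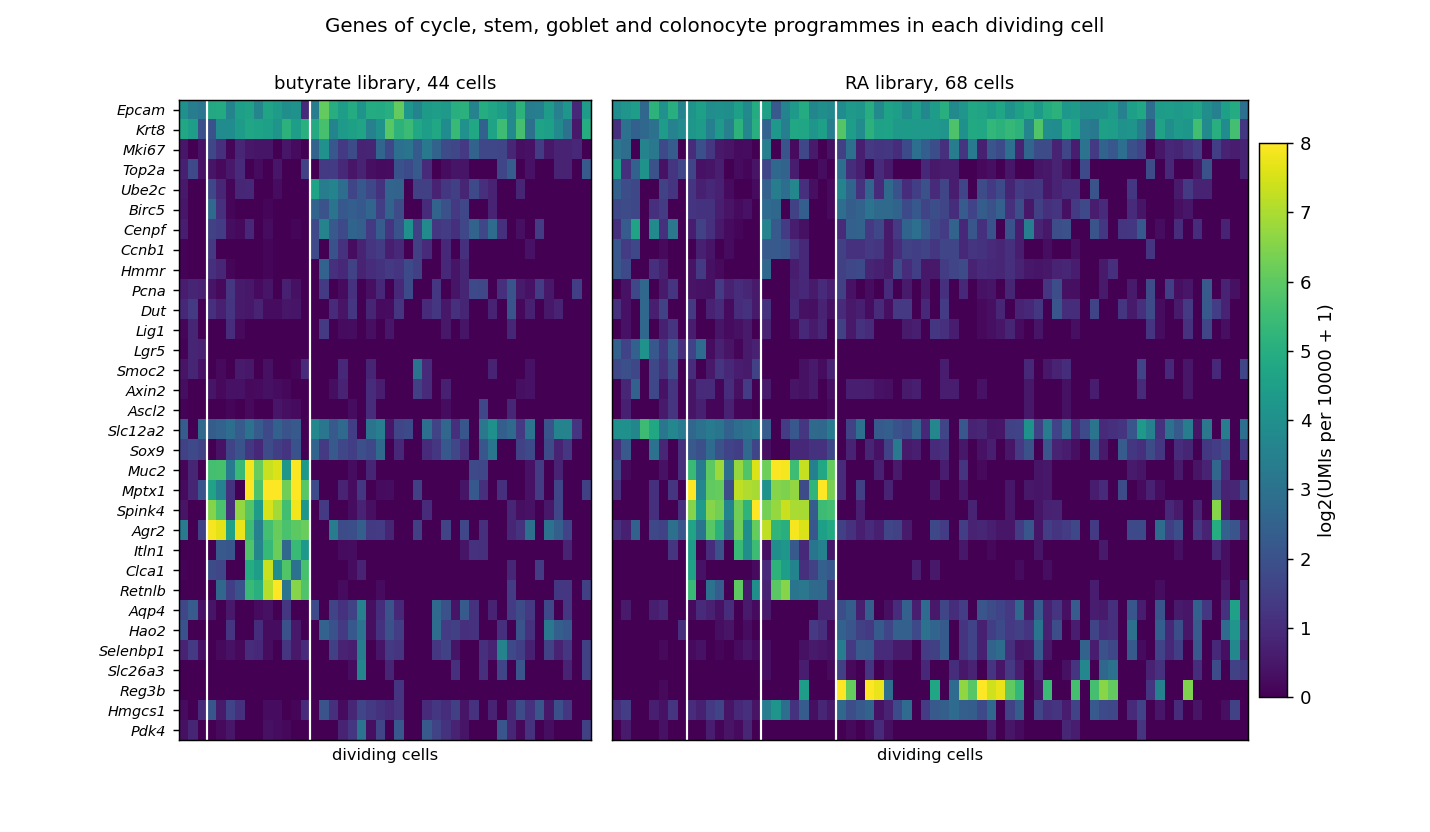
Each column is 1 dividing cell and each line 1 gene, coloured by log2 of UMIs per 10000 plus 1, with the butyrate library left and the RA library right. White lines part cells with an Lgr5 UMI, with both an Lgr5 UMI and at least 10 Muc2 UMIs (RA alone, 8 cells), with at least 10 Muc2 UMIs, and with neither. Goblet genes such as Mptx1 and Agr2 light up in the Muc2-rich block, Aqp4 and Hao2 outside it, and Reg3b in the RA cells with neither mark.

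Mitosis genes were less abundant in the Muc2-rich cells of both libraries, with sums of 479 CPM in butyrate and 1133 CPM in RA. Their median was 1.78 UMIs per 10000 in butyrate Muc2-rich cells (0 to 50.1) and 8.90 in RA Muc2-rich cells (0.67 to 86.8). In members with under 10 Muc2 UMIs the medians were 19.1 and 18.4, with summed levels of 2242 and 2301 CPM. At least 20 per 10000 were held by 1 of 11 butyrate and 5 of 16 RA Muc2-rich cells. In such deep barcodes 2 UMIs of Mki67 and Top2a are a small share. As sums, the 479 CPM of the butyrate Muc2-rich cells lay above the 115 CPM of butyrate epithelial barcodes with none of the pair. The cell median of 1.78 per 10000 is another measure, and it was low beside the 19.1 of butyrate members with little Muc2. For most of the butyrate Muc2-rich cells the mitosis genes thus gave little sign of division. The mitosis totals of all dividing cells, 1473 CPM in butyrate and 1817 in RA, thus lay further apart than those of members with little Muc2.

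Within dividing cells, each gene was then compared between the libraries as a ratio of summed CPM, butyrate over RA. Of 8111 genes with at least 50 UMIs in both libraries together, 3.76% were at least 1.5-fold higher in butyrate and 7.4% at least 1.5-fold lower, 11.2% in all. List members needed 20 UMIs, and at that minimum 6.31% of 10450 genes were at least 1.5-fold higher and 11.3% lower, with a median log2 ratio of -0.054. By any size, 43.8% were higher in butyrate. Each list is described by its counts and median beside these values, and none was tested.

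Cell cycle genes were slightly lower in butyrate dividing cells. Of 24 mitosis genes 22 were lower and 2 higher, with a median log2 ratio of -0.35, and 2 passed 1.5-fold, Ccnb1 at 0.599 (0.433 to 0.820) and Hmmr at 0.606 (0.447 to 0.814). Without the Muc2-rich cells the median was -0.10, near that of all genes. Ube2c, at 133 and 156 CPM, had a ratio of 0.852 (0.720 to 1.01), and Cks2, a subunit of the cyclin-dependent kinases, of 1.02 at 280 and 275 CPM. Of 19 replication genes 16 were lower and 3 higher, with a median of -0.37 (-0.76 to 0.034 over the alternatives). At least 1.5-fold lower were 8 of them. Among these, Gins2, of the replicative helicase complex, was at 9.26 and 20.2 CPM (0.459, 0.243 to 0.820) and Lig1, the ligase of Okazaki fragments, at 15.6 and 33.4 CPM (0.468, 0.291 to 0.732). Pcna had a ratio of 0.984 (0.750 to 1.29), so the replication genes did not share 1 ratio.

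Of the genes that set entry into the cycle, 16 were measured with a median of -0.17. Cdkn2c, the kinase inhibitor p18, was at 4.63 and 13.6 CPM, a ratio of 0.341. Cdkn1a, the kinase inhibitor p21 that histone deacetylase inhibitors are known to raise in cultured cells, was at 313 and 270 CPM, a ratio of 1.16 (1.03 to 1.30). Its ratio was 0.994 among members with at least 4 Mki67 and Top2a UMIs. Ccnd2, a D-type cyclin, was at 255 and 213 CPM (1.2-fold). The 10 histone deacetylase genes had a median of -0.12, and Hdac4, a class IIa enzyme, was highest among them at 79.3 and 49.9 CPM (1.59, 1.24 to 2.05).

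Stem cell genes other than Lgr5 had ratios closer to 1. Of 15 measured, 10 were lower and 5 higher, with a median of -0.37, and 6 were at least 1.5-fold lower. Over the alternatives this median ran from -0.45 to 0.092. Smoc2, at chr17:14279506-14404790 on the plus strand, had a UMI in 15 butyrate and 27 RA members, at 20.3 and 52.7 CPM (0.384, 0.256 to 0.562). Lrig1 was at 104 and 173 CPM (0.599, 0.50 to 0.715) and Axin2 at 22.6 and 37.1 CPM (0.609, 0.407 to 0.896). Slc12a2, at 432 and 569 CPM, had a ratio of 0.758 (0.693 to 0.829). Ascl2 was at 10.4 and 9.48 CPM from 18 and 23 UMIs, with a ratio of 1.10 (0.559 to 2.13), and Sox9 at 205 and 187 CPM with a ratio of 1.10 (0.95 to 1.26). Smoc2, Lrig1 and the Wnt target Axin2 were thus lower together with Lgr5, while Ascl2, Sox9 and Cd44 had ratios at or just above 1. Among members without an Lgr5 UMI, Axin2 was at 23.2 CPM in butyrate and 21.3 in RA, and Smoc2 at 17.9 and 23.1. Lrig1 was at 107 and 151 CPM there. Ascl2 and Sox9 went the other way among these members. Ascl2 was at 11.3 CPM in butyrate (17 UMIs) and 1.88 in RA (3 UMIs), and Sox9 at 206 and 111 CPM. Slc12a2 was at 436 and 427 CPM. Outside the Lgr5-positive cells the Axin2 gap was thus absent, the Smoc2 gap smaller and the Lrig1 gap still present, while Ascl2 and Sox9 were higher in butyrate.

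Cholesterol synthesis genes had the lowest median of the lists compared. Of 20 enzymes and regulators 19 were lower in butyrate dividing cells and 1 higher, 14 of them at least 1.5-fold lower, with a median log2 ratio of -0.80 that stayed between -0.96 and -0.64 under all alternatives. Hmgcs1, the enzyme that makes the substrate of the statin target, had a UMI in 33 of 44 butyrate and 54 of 68 RA members. It lies at chr13:119690379-119708260 on the plus strand and was at 83.9 and 186 CPM (0.452, 0.372 to 0.546). Msmo1, a sterol demethylase, was at 33.0 and 90.2 CPM (0.366, 0.268 to 0.491), and Sqle, the epoxidase that commits squalene to sterols, at 17.9 and 44.5 CPM (0.403). Dhcr7, a reductase late in the pathway, was the 1 member that was higher, at 1.06.

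In the butyrate library the cholesterol genes lay near the level of the other epithelium, while in the RA library they were higher in the dividing cells. Hmgcs1 was at 83.5 CPM in other butyrate epithelium and 83.8 in other RA epithelium, so outside the dividing cells its levels were nearly equal. The list's median log2 ratio of dividing over other epithelial barcodes was 0.22 in the butyrate library and 0.71 in the RA library. At least 20 UMIs of the list per 10000 were held by 1 of 44 butyrate and 18 of 68 RA members, and the cell medians were 7.62 (2.24 to 21.8) and 10.4 (1.46 to 60.6). High levels were thus seen in a subset of the RA cells, while the ranges of both libraries overlapped.

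Fatty acid oxidation and ketogenesis genes, which serve the burning of butyrate and other fatty acids, were higher in 17 of 19 cases, with a median of 0.22, and 4 were at least 1.5-fold higher. Pdk4, the kinase that turns pyruvate away from oxidation and lies at chr6:5483351-5496309 on the minus strand, had a UMI in 24 of 44 butyrate and 17 of 68 RA members. It was at 49.8 and 20.2 CPM, a ratio of 2.47 (1.72 to 3.58). Slc25a20, the carnitine carrier of mitochondria, was at 39.9 and 20.6 CPM (1.94-fold). The whole fatty acid list summed to 2370 and 1923 CPM in members. In other epithelial barcodes it summed to 2533 and 1879 CPM, so this gap was not particular to dividing cells. The 6 genes of butyrate transport and sensing had a median of 0.04 and 0 passed 1.5-fold.

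MHC class I genes were higher in 9 of 12 cases with a median of 0.35. In members this list summed to 3119 CPM in butyrate and 2198 in RA. In other epithelial barcodes the sums were 7169 and 4249 CPM, so this gap was not particular to dividing cells. H2-K1, a class I heavy chain, was at 824 and 477 CPM (1.73, 1.60 to 1.87), with cell medians of 8.0 UMIs per 10000 in butyrate members (1.52 to 26.1) and 4.4 in RA members (0 to 14.5). B2m, the shared light chain, was at 779 and 484 CPM (1.61-fold), and Psmb10, a subunit of the immunoproteasome, went the other way at 77.0 and 121 CPM (0.635). Of 15 type I interferon genes 10 were higher and 5 lower, with a median of 0.12. The interferon list summed to 378 and 313 CPM in members, and to 2684 and 1270 CPM in other epithelial barcodes. Bst2, the virus tether, was at 90.9 and 47.4 CPM (1.92, 1.5 to 2.46), and the interferon genes did not share 1 direction.

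MHC class II genes had a median of 0.72 over 6 genes, but this rested on few cells. Cd74, the class II chaperone, was at 315 and 140 CPM (2.26-fold), and 1 butyrate cell held 43.7% of its UMIs, while 1 cell held 57.4% of those of H2-Aa. Without members that had a Ptprc or Cd79a UMI the class II median was -0.054 and the Cd74 ratio 1.22. The pan-leukocyte sums were 69.5 and 21.8 CPM, as given above, and their part in these values was not tested.

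Reg3b and Reg3g, secreted C-type lectins that act against bacteria, showed the widest gap. Reg3b, at chr6:78370657-78373466 on the plus strand, had 3 UMIs in 1 butyrate member and 9651 UMIs in 25 RA members, of which 1 RA cell held 31.5%. Reg3g had 25 UMIs in 5 butyrate members and 2198 UMIs in 29 RA members. In the RA cells, all but 1 of the Reg3b UMIs lay in cells without an Lgr5 UMI. The other 6 members of that list had ratios from 0.702 to 1.65.

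Goblet products were higher in the butyrate dividing cells, with much of the RNA in few cells. Of 18 goblet and deep crypt secretory genes 16 were higher and 2 lower, with a median of 0.55, and without members that had a Ptprc or Cd79a UMI the median was 0.10. Mptx1, a mucosal pentraxin, was at 8329 and 5684 CPM (1.47-fold) and Muc2 at 4778 and 3065 CPM (1.56-fold), and without the Muc2-rich cells the Muc2 ratio was 0.625. Clca1, a protease of mucus, was at 1541 and 133 CPM (11.6, 10.3 to 13.1), but 1 cell held 63.3% of the butyrate UMIs. In the mean over cells, each weighted alike, its ratio was 5.12. Retnlb, a resistin-like antibacterial protein, was at 2528 and 577 CPM (4.38-fold), a ratio that ran from 1.95 to 8.90 over the alternatives. Zg16, a lectin of colon mucus, was at 35.3 and 159 CPM, and 1 cell held 91.8% of the butyrate UMIs.

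**Figure D5:**
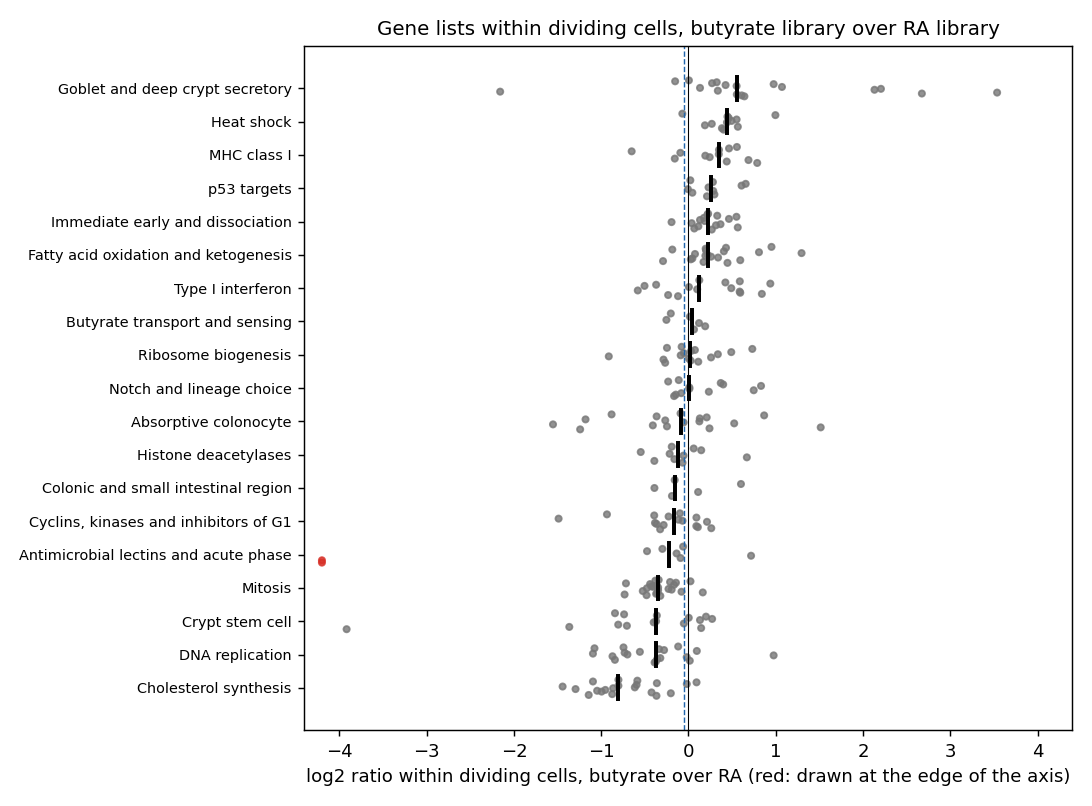
Each dot is 1 gene with at least 20 UMIs, placed by its log2 ratio within dividing cells (butyrate over RA), and the black bar is the list's median. The dashed line marks the median of all genes, -0.054, and the overlapping red dots are Reg3b and Reg3g, which lie beyond the axis. Among the lists drawn, cholesterol synthesis lies lowest at -0.80 and the goblet list highest at 0.55; the class II, enteroendocrine and stromal lists, which few cells fill, are not drawn.

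Stress and handling genes were also slightly higher in the butyrate library. Of 12 heat shock genes 11 were higher, with a median of 0.44, and Hspb1, a small chaperone, was at 356 and 178 CPM (2.0-fold). The heat shock list summed to 14424 and 11108.5 CPM in members, and to 10430 and 7271 CPM in other epithelial barcodes. Of 16 immediate early genes, which dissociation is known to induce, 15 were higher with a median of 0.22, and 0 passed 1.5-fold. The 10 p53 target genes had a median of 0.25. Hoxb13, the distal colon regulator, was at 117 and 77.1 CPM (1.52, 1.24 to 1.86), with 1 cell holding 27.2% of its butyrate UMIs. The heat shock and immediate early lists thus lay on the same side as the MHC and fatty acid oxidation lists, and their part in those ratios was not tested.

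Genes with at least 50 UMIs were then ranked, leaving out those with over 25% of their UMIs in 1 cell of the higher library. Mitochondrial, ribosomal protein, immunoglobulin, T cell receptor, hemoglobin, Y-linked and Xist genes and unnamed gene models were also left out. The highest ratios were led by Ifi27l2a, an interferon-inducible gene, at 148 and 43.3 CPM (3.42, 2.72 to 4.34). Next came Spry4, an inhibitor of receptor tyrosine kinase signalling, at 24.3 and 7.83 CPM (3.11), and Gdf15, a stress-induced hormone, at 215 and 70.1 CPM (3.07). Scin, an actin-severing protein, had a ratio of 2.67, Xkr4 2.66, Hs3st1, an enzyme of heparan sulfate, 2.63, Gsdmc3, a gasdermin, 2.59, and Prkch, a protein kinase C, 2.51. Apart from Reg3b and Reg3g, given above and lower still, the lowest were Lgr5 at 0.0591 and H1f5, at 4.63 and 19.4 CPM (0.239, 0.0976 to 0.511). H1f5 is a linker histone made in S phase. Usp50 (0.322), Zc3h6 (0.351), Bmp8a (0.359), Caprin2 (0.361) and Msmo1 (0.366) followed. The Lgr5 ratio was thus well below that of H1f5, the next in this order.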

How the data were processed

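As deposited, each library is a matrix of raw, unnormalized UMI counts, per the file headers. The headers name Cell Ranger 7.1.0, while the submitters' processing notes name Cell Ranger 6.0.1, Seurat 4.0.3 and 4.0.4 and mm10. Whether intronic reads were counted is not given in the sources used here, and it would change the levels of long genes. The kit was 10x 3′ chemistry, per the labels' protocols. Of 31253 gene identifiers, 31184 were found in GENCODE M21 (GRCm38). The libraries held 67894477 UMIs in 9959 barcodes (butyrate) and 61912439 UMIs in 10140 barcodes (RA), and 1358 and 1808 barcodes lay above the mitochondrial limit.

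UMIs of the members were summed per library (1727678 and 2426791) and divided by their total. Intervals of shares are Clopper-Pearson, those of ratios exact conditional binomial, both at 95% and for counting error only; beside a share of 0 the limit is 3 counts of the total. A log2 ratio had 0.5 added to each sum. B cell barcodes had at least 2 Cd79a UMIs. The 32 gene lists had 417 entries, 413 of them in the files. Named genes were, per list, the 2 most abundant and the 2 highest and 2 lowest ratios with an interval excluding 1. To these came the 8 highest and 8 lowest over all genes, the 15 with the highest ratio of dividing over other epithelium, and the marker genes. The ranking over all genes left out those with over 25% of UMIs in 1 cell of the higher library. It also left out genes whose interval held 1, and the gene classes named with that ranking. Aqp4, Hao2, Guca2a, Slc26a3, Krt20, Tyms, Ephb2, Axin2, Lrig1, Ascl2, Cd44, Spdef, Retnlb, Cdk1, Mcm7, Dhcr7 and the markers given as absent were named after their values were seen. Results of some genes that this rule names are not reported here. The members and lists were chosen with earlier results of these data known. Scripts were tested on simulated data. Tools were Python 3.11.15, scanpy 1.11.5, numpy 2.4.6, scipy 1.17.1, pandas 2.3.3 and matplotlib 3.10.9, with edgeR 4.0.16 in R 4.3.3 for TMM scaling factors as an alternative. The alternatives changed the mitochondrial limit, the UMI floor, the Mki67 and Top2a and the Epcam and Krt8 minimum, doublet and leukocyte removal, depth, weighting and scaling.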

Additional observations from a re-analysis of the deposited data

How the results depend on the processing

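The limits are few cells, 1 mouse per group and no replicate; 44 and 68 members make any gene that 1 cell fills unsure, and at 2000 UMIs per cell most genes were too sparse for a ratio. No paired analysis was possible because the labels give 1 sample per group and no shared number. Of 191 alternative values of the results that answer a comparison, 182 lay within the counting interval of the reported value, 1.5 times a count or 0.58 on the log2 scale of a list median. The remaining results, single gene ratios among them, had 1088 alternative values. By the same limits 880 of these stayed, 192 moved and 16 turned in direction.

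The share ratio of dividing cells was 0.829 at 10% mitochondrial UMIs. The 905 genes past 1.5-fold were 96 after thinning, 1647 as a mean over cells, 1841 with at least 20 UMIs and 417 with at least 100. Without cells of at least 10 Muc2 UMIs the goblet list's median of dividing over other epithelial barcodes was -1.67 in the butyrate library and -2.00 in the RA library. That cut is a raw count, and the dividing cells were deeper than the other barcodes, which was not matched here. The mitosis list's median in the butyrate library was 6.26 without those cells, and 4.83 against barcodes with at most 1 Mki67 or Top2a UMI.

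Turned in direction were the class II list with at least 4 cycle UMIs (-0.10) and without Ptprc or Cd79a cells (-0.054). With at least 4 cycle UMIs the ratio of Cdkn1a was 0.994, of Muc2 0.798, of Atoh1 0.818 and of Cd74 1.00. Without Muc2-rich cells it was 0.625 for Muc2 and 0.875 for Fcgbp. After thinning it was 1.83 for Ccna2, 0.508 for Atoh1, 1.52 for Usp50, 0.761 for Gsdmc3 and Xkr4, and 0.653 for Scin. As a mean over cells Ccna2 was at 1.01, and Zg16 at 10% mitochondrial UMIs was at 1.73. The heat shock median of dividing over other epithelial barcodes was -0.12 in the butyrate library with at least 10000 UMIs in both sets. The cause of these changes was not tested. The Lgr5 ratio ran from 0.019 to 0.277, that of Hmgcs1 from 0.381 to 0.537 and that of Pdk4 from 2.05 to 6.31 over the alternatives.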
